A study of Mus musculus with 3 samples.

Results

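The wild type DN1 transcriptome is the set of RNA levels in sorted thymic cells of wild type mice, measured in 1 library. The cells lacked lineage antigens, carried CD44 and lacked CD25, which is the surface definition of the double-negative 1 (DN1) stage. Members were chosen by taking only the wild type values and leaving out small RNAs, predicted genes or clones, and pseudogenes by symbol, which left 19051 genes of 23350 table lines with a wild type value. The study sequenced 3 libraries of such cells, from wild type mice, from gl/gl mice that lack Ostm1 (grey-lethal), and from gl/gl mice with a transgenic CD2-Ostm1, in which Ostm1 is placed under CD2 control. All mice were 19 days old and of a 129sv/C3H background. Cells of 2 mice were pooled for the wild type library, so it holds no separate animal, no replicate and no error of its own. The values are given as levels and ranks, and genes with close values have no established order.

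DN1 cells are the least mature double-negative cells of the thymus. Early T cell progenitors, which arrive from the bone marrow with high KIT and CD44, lie within this gate beside cells of other lineages that pass a depletion with lineage antibodies. Progenitors in the gate retain a capacity for natural killer, dendritic and myeloid fates in culture and in transfer, and Notch signals from the thymic stroma direct them into the T lineage. Commitment comes later, as CD25 appears and Bcl11b acts, and rearrangement of the T cell receptor genes follows.

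Levels are in FPKM, a value scaled for the length of the transcript and the fragments in the library, so that genes can be set beside each other. A gene at 1 FPKM or more was counted as measured. This held for 10772 of the 19051 genes, or 56.5%, and 6946 genes, or 36.5%, had 10 FPKM or more. The median level over all genes was 3.13 FPKM, and over measured genes it was 15.5 FPKM with quartiles of 6.71 and 32.5. Another 4540 genes lay above 0 and under 1 FPKM, and 3739 genes were listed at 0. As estimated roughly from how the lowest levels are spaced, a transcript of 2 kb had about 82 fragments at 1 FPKM, 816 at 10 FPKM and 8155 at 100 FPKM, which covers counting error only. Levels under 1 FPKM therefore rest on few fragments for short transcripts. By chromosome, the measured share ran from 46.2% on chromosome 7 and 47.5% on the X chromosome to 63.5% on chromosome 8, and none of 16 genes on the Y chromosome was measured.

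The highest levels belonged to translation and the actin cytoskeleton. Eef1a1 (chr9:78478454-78481724 in the table, mm10), the elongation factor that brings aminoacyl-tRNA to the ribosome, stood highest at 6453 FPKM. Rps12, a small-subunit ribosomal protein, had 4165 FPKM and Rps29, another, had 4024 FPKM. Actb, the cytoplasmic beta-actin, had 4025 FPKM, and Tmsb4x, the thymosin that sequesters actin monomers, had 4020 FPKM. The actin and elongation factor genes thus stood among ribosomal protein genes of like level, with Rplp1 at 3901 FPKM, Rpl39 at 3612 FPKM, a joint entry of Gm9846 and Rps27 at 3548 FPKM, Rps20 at 3465 FPKM and Rpl41 at 3386 FPKM completing the highest 10. Ribosomal protein genes filled 7 of the highest 10 places, 26 of the highest 30 and 73 of the highest 100. Their 87 entries made up 29.6% of the summed FPKM of all genes, with a median of 1762 FPKM.

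Messenger RNAs of the translation machinery are known to start with an uninterrupted stretch of pyrimidines, through which their translation is tuned to growth signals. The 30 bases from 15 before to 15 after the annotated start are shown for the 8 of the 12 highest genes that had a promoter entry in RefSeq (GRCm38.p6), to set this feature beside the levels that dominate the library. Each is printed 5′ to 3′ on the strand of its gene, with the longest run of C and T that overlaps the 5 bases on either side of the start in capitals.
Eef1a1: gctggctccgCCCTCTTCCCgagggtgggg
Rps12: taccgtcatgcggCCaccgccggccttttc
Tmsb4x: cggactacgagtgacatcaCCTCatttgca
Rpl39: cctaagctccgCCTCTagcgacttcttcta
Rps27: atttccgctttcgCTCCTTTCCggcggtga
Rpl41: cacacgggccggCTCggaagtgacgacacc
Rps9: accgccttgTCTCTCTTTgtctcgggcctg
Rps28: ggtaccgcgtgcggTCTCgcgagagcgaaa
The windows of Eef1a1 (chr9:78481710-78481739), Rps12 (chr10:23787195-23787224), Tmsb4x (chrX:167209204-167209233) and Rpl39 (chrX:37085208-37085237) lie on the minus strand. So do those of Rps27 (chr3:90213634-90213663), Rpl41 (chr10:128549154-128549183) and Rps28 (chr17:33824548-33824577), while that of Rps9 (chr7:3704026-3704055) lies on the plus strand. All span the RefSeq transcript start and the first bases of the first exon.

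Among these windows, 3 of 8 held a run of 7 or more, with 10 bases in Eef1a1 and 9 bases each in Rps27 and Rps9. The other 5 held shorter runs, down to 2 bases in Rps12. Over all ribosomal protein genes with a promoter entry, 43.3% of 67 had a run of 7 or more at the start, against 13.4% of 15205 ranked genes and 13.5% of all 27025 promoter entries. A match describes the letters at an annotated start only, and a start annotated a few bases away would miss the run.

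Gene structure also differed with the level, as a description over genes of very unlike function. The median annotated transcript was 914 bases long for ribosomal protein genes and 1939 bases for the other genes at 100 FPKM or more. It was 3107 bases at 10 to under 100 FPKM, 3299 bases at 1 to under 10 FPKM, and 2204 bases for genes listed at 0, against 2898 bases over all ranked genes with a known structure. Genes at intermediate levels thus had longer transcripts than those at either end. The motifs below were searched on both strands of the 250 bases before the start. The GC box (GGGCGG) was in 62.3% of promoters of genes at 10 to under 100 FPKM and in 14.2% of those of genes listed at 0. Its share was 55.5% at 100 FPKM or more, 46.4% over all ranked genes and 32.9% over all promoter entries. The TATA box (TATAAA) ran the other way, in 5.45% and 27.0% of the same classes, against 13.0% of all entries. The core of the site bound by ETS factors (CCGGAA) was in 26.3% and 3.98% of these classes and in 38.8% of ribosomal protein promoters, against 12.2% of all entries. Motifs were searched separately and may overlap each other.

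**Figure D1:**
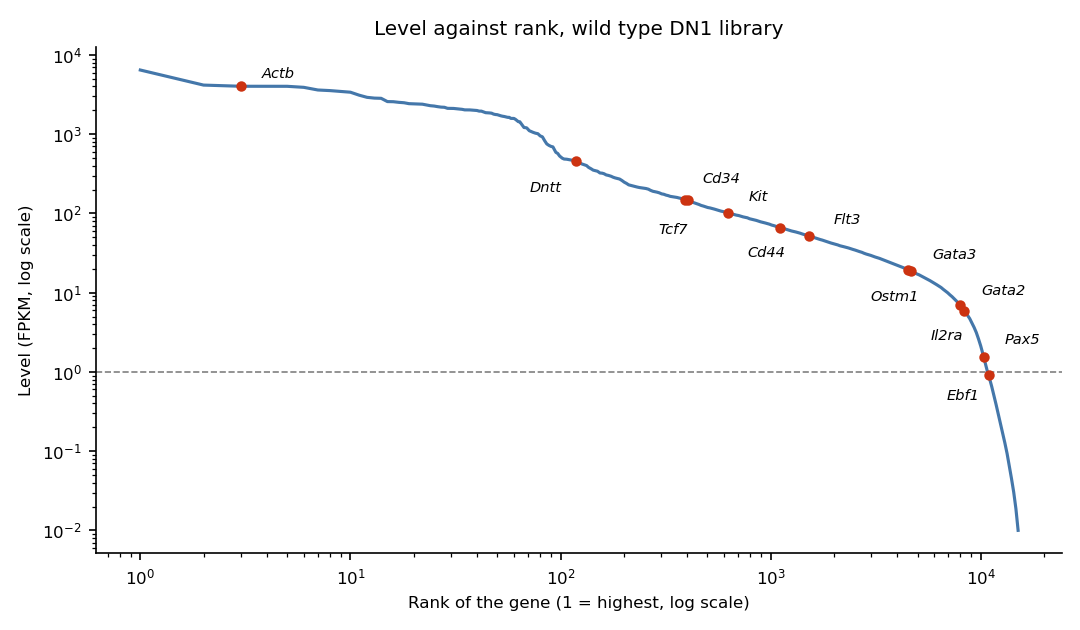
Level of each of 19051 genes against its rank in the wild type DN1 library, both axes logarithmic, in FPKM. The curve starts at 6453 FPKM for Eef1a1, and the progenitor markers Cd34, Kit and Flt3 lie between ranks 393 and 1518, far above Il2ra at 5.94 FPKM. The dashed line marks 1 FPKM, and levels under 0.01 FPKM are not drawn.

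Outside the ribosome, housekeeping genes and then genes of white blood cells led the ranking. Tpt1, a translationally controlled growth protein, had 2391 FPKM and Ppia, the cyclophilin A prolyl isomerase, had 2027 FPKM. Ptma, the chromatin-associated prothymosin alpha, had 1473 FPKM, and the nuclear non-coding RNA Malat1 had 1073 FPKM. B2m, the light chain of class I molecules, had 1014 FPKM. Coro1a, an actin regulator of leukocytes, followed at 851 FPKM and the ferritin light chain Ftl1 at 727 FPKM. Plac8, a gene of haematopoietic progenitors and other white blood cells, had 699 FPKM, and Cd52, a small surface glycoprotein of lymphocytes, had 590 FPKM. Dntt, the highest of the T lineage regulators, had rank 118. Over all ranked genes, with the ribosomal ones, the 10 highest held 8.22% of the summed FPKM, the 100 highest 37.0% and the 1000 highest 63.6%. The share of the 100 highest was 19.2% without ribosomal protein genes and 78.6% with small RNAs and predicted genes kept.

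Progenitor markers and the sorted antigens were checked against the label. Cd34 (chr1:194938821-194976959), a sialomucin of stem cells and progenitors, had 149 FPKM and rank 393. Kit (chr5:75574987-75656721), the stem cell factor receptor, had 101 FPKM and rank 625. Cd44 (chr2:102811142-102901665), the hyaluronan receptor that the sort selected, had 66.4 FPKM, and Flt3 (chr5:147330742-147400489), the receptor for FLT3 ligand, had 51.9 FPKM. These 4 genes stood above the upper quartile of measured genes. Il2ra (chr2:11642792-11693194), which encodes CD25 and against which the cells were sorted, had 5.94 FPKM and rank 8356, below the lower quartile. All 5 positions are the loci as the deposited table gives them on mm10 and span the whole gene.

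Transcripts of lineage antigens were nevertheless present at the same time. Of 15 genes for antigens of a usual depletion mixture, 14 were measured, or 93.3%, against 56.5% of all genes. At 10 FPKM or more were 11, or 73.3%, against 36.5% of all genes, and the median was 35.5 FPKM. Chains of the CD3 complex, the signalling part of the T cell receptor, were among the highest, with Cd3g at 274 FPKM, Cd3d at 113 FPKM, Cd247 at 82.8 FPKM and Cd3e at 77.3 FPKM. Ptprc, the phosphatase CD45 of leukocytes in general, had 231 FPKM and marks no single lineage. The co-receptor genes Cd8b1 and Cd8a had 35.5 and 32.7 FPKM, a ratio of 1.08, and Cd4 had 21.9 FPKM. The adhesion gene Cd2 had 54.0 FPKM, the T cell glycoprotein Cd5 had 45.6 FPKM, and the natural killer receptor Klrb1c had 34.5 FPKM. Antigens of myeloid cells were lower, with Itgam at 5.72 FPKM and Itgax at 7.09 FPKM. The antibodies of this sort are not named in the labels beyond the lineage gate, and in RNA of a mixed population fewer cells of a type and less RNA per cell cannot be told apart. How much of each lineage transcript came from cells other than progenitors was not tested.

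In this mixture the 28 T lineage regulators summed to 2040 FPKM and the 18 natural killer and innate lymphoid genes to 1040. The 18 dendritic cell genes summed to 1270 FPKM and the 20 monocyte, macrophage and granulocyte genes to 818. The sums were 316 FPKM for 14 mast cell and basophil genes, 232 for 16 B lineage genes and 122 for 15 erythroid and megakaryocyte genes. Single genes weighed heavily in them, such as Dntt at 462 FPKM, Cd74 at 471 FPKM and, among mast cell genes, Kit at 101 FPKM. By median, dendritic cell genes at 13.1 FPKM stood below natural killer and innate lymphoid genes at 34.6 FPKM. The sums describe the chosen lists, and the share of each lineage in the cells was not tested. Some genes are counted in more than 1 of these sums, such as Rag1 in the T and B lineage lists, and Gata3 and Tox in the T lineage and natural killer lists.

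The lists of genes below were chosen for blood cells, and their counts stand beside the 56.5% of all genes at 1 FPKM or more. Of 27 transcription factors of progenitors 26 were measured, or 96.3%, with a median of 15.7 FPKM. Myb, which maintains haematopoietic progenitors, was the highest at 138 FPKM. The ETS factors Fli1, at 68.7 FPKM, and Etv6, at 59.8 FPKM, followed. Irf8, a factor of dendritic cells and monocytes, had 59.6 FPKM, and the basic helix-loop-helix factor Lyl1, which serves early T progenitors, had 52.0 FPKM. Its close relative Tal1, a stem cell and erythroid factor, was much lower at 5.91 FPKM. Lmo2, the bridging partner of both proteins, had 32.4 FPKM, and Sfpi1, which encodes the ETS factor PU.1, had 35.6 FPKM. Erg, an ETS factor of stem cells, had 31.2 FPKM. Lower in the list were Meis1 at 8.79 FPKM, Gata2 at 6.94 FPKM, Hlf at 1.02 FPKM and Mecom at 0.022 FPKM. Hoxa9, at 13.3 FPKM, was the highest of 11 genes of the HoxA cluster. Of these, 6 were measured, or 54.5%, near the 56.5% of all genes, and Hoxa11 and Hoxa13 were listed at 0.

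Regulators of the T lineage had the highest median of the lineage lists, 35.1 FPKM, and all 28 were measured. At 10 FPKM or more were 25, or 89.3%, against 36.5% of all genes. Dntt, the polymerase that adds bases at receptor gene joints, had 462 FPKM. The RNA-binding proteins Zfp36l2, at 278 FPKM, and Zfp36l1, at 51.6 FPKM, limit growth during lymphocyte development. Ets1 had 268 FPKM, and Tcf7, a target of Notch and an initiator of the T programme, had 146 FPKM. Ikzf1, the zinc finger factor Ikaros, had 121 FPKM, and the chromatin organiser Satb1 had 85.5 FPKM. Gata3, which T progenitors need, was lower at 18.5 FPKM. Bcl11b, whose rise marks commitment, had 32.5 FPKM. The recombinase genes were unequal, with Rag1 at 29.7 FPKM and Rag2 at 6.59 FPKM. Genes of later double-negative stages closed the list, Notch3 at 3.05 FPKM and Ptcra, the invariant chain of the pre-T cell receptor, at 1.72 FPKM.

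Genes of natural killer and innate lymphoid cells had a median of 34.6 FPKM, close to that of the T lineage list, and all 18 were measured. Id2, the antagonist of E proteins that innate lymphoid cells require, had 232 FPKM. Il7r had 182 FPKM, Il2rb, the shared chain for interleukins 2 and 15, had 107 FPKM, and Il18r1 had 98.5 FPKM. The cytotoxic granule enzymes Gzma and Gzmb had 86.2 and 62.1 FPKM. Zbtb16, the factor PLZF of innate-like lymphocytes and innate lymphoid precursors, had 27.2 FPKM. The T-box factors were lower, Tbx21 at 11.5 FPKM and Eomes at 2.89 FPKM, and so was perforin, Prf1, at 5.24 FPKM. Apart from perforin, the effector and surface genes named here thus stood above the T-box factors.

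All 18 dendritic cell genes were measured, with a median of 13.1 FPKM, and class II antigen presentation led them. Cd74, the invariant chain, had 471 FPKM, H2-Aa had 280 FPKM, H2-Ab1 had 170 FPKM and H2-Eb1 had 91.0 FPKM. Genes of dendritic cell subsets covered a wide range. Bst2, an antigen of plasmacytoid dendritic cells and of interferon-exposed cells, had 58.9 FPKM, and Tcf4, a factor that plasmacytoid cells need, had 18.5 FPKM, beside Irf8. Batf3, a factor of cross-presenting dendritic cells, had 5.69 FPKM, the chemokine receptor Xcr1 had 4.29 FPKM, the classical dendritic cell factor Zbtb46 had 3.76 FPKM and the lectin Clec9a had 2.30 FPKM. Class II genes are also expressed by B cells and macrophages, and the source of these transcripts was not tested.

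Among 20 genes of monocytes, macrophages and granulocytes, 16 were measured and the median was 9.31 FPKM. The granule enzyme Mpo had 152 FPKM, Tyrobp, an adaptor of myeloid and natural killer receptors, had 141 FPKM, and the calgranulin S100a8 had 110 FPKM. Lysozyme, Lyz2, had 91.7 FPKM. Several genes of mature macrophages were lower. Csf1r, the receptor of macrophage colony-stimulating factor, had 15.5 FPKM, whereas Emr1, which encodes the F4/80 antigen, had 0.738 FPKM, and the Fc receptor Fcgr1 had 0.158 FPKM. Elane, an elastase stored with Mpo in the same granules, had 0.424 FPKM.

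Mast cell and basophil genes included 13 of 14 measured, with a median of 13.4 FPKM. Kit itself belongs to this list. The carboxypeptidase Cpa3, found in mast cells and in early progenitors, had 65.6 FPKM, and the proteases Mcpt2, Mcpt1, Cma1, Mcpt8 and Mcpt4 had between 38.8 and 17.6 FPKM. The lowest of the list were the transcription factor Mitf at 1.70 FPKM, the histidine decarboxylase Hdc at 1.31 FPKM and the IgE receptor chain Fcer1a at 0.889 FPKM. Erythroid and megakaryocyte genes had the lowest median of the lineage lists, 1.89 FPKM, with 12 of 15 measured. The carbonic anhydrase Car2 stood apart at 68.1 FPKM, while Gata1 had 2.37 FPKM, Klf1 had 1.84 FPKM and Vwf had 0.307 FPKM.

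B lineage genes had a median of 7.40 FPKM, with 14 of 16 measured, or 87.5%. At 10 FPKM or more were 5 genes, or 31.3%, near the 36.5% of all genes. Blk, a Src family kinase of B cells that some T cells share, had 81.5 FPKM. Bcl11a, also a progenitor factor, had 31.8 FPKM, and Cd79b had 25.5 FPKM against 7.90 FPKM for its partner Cd79a in the B cell receptor. The factors that specify B cells were at the low end, Pax5 at 1.54 FPKM and Ebf1 at 0.905 FPKM. Surrogate light chain genes were low as well, with Igll1 at 1.91 FPKM, Vpreb1 at 1.35 FPKM and Vpreb2 at 0.389 FPKM.

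**Figure D2:**
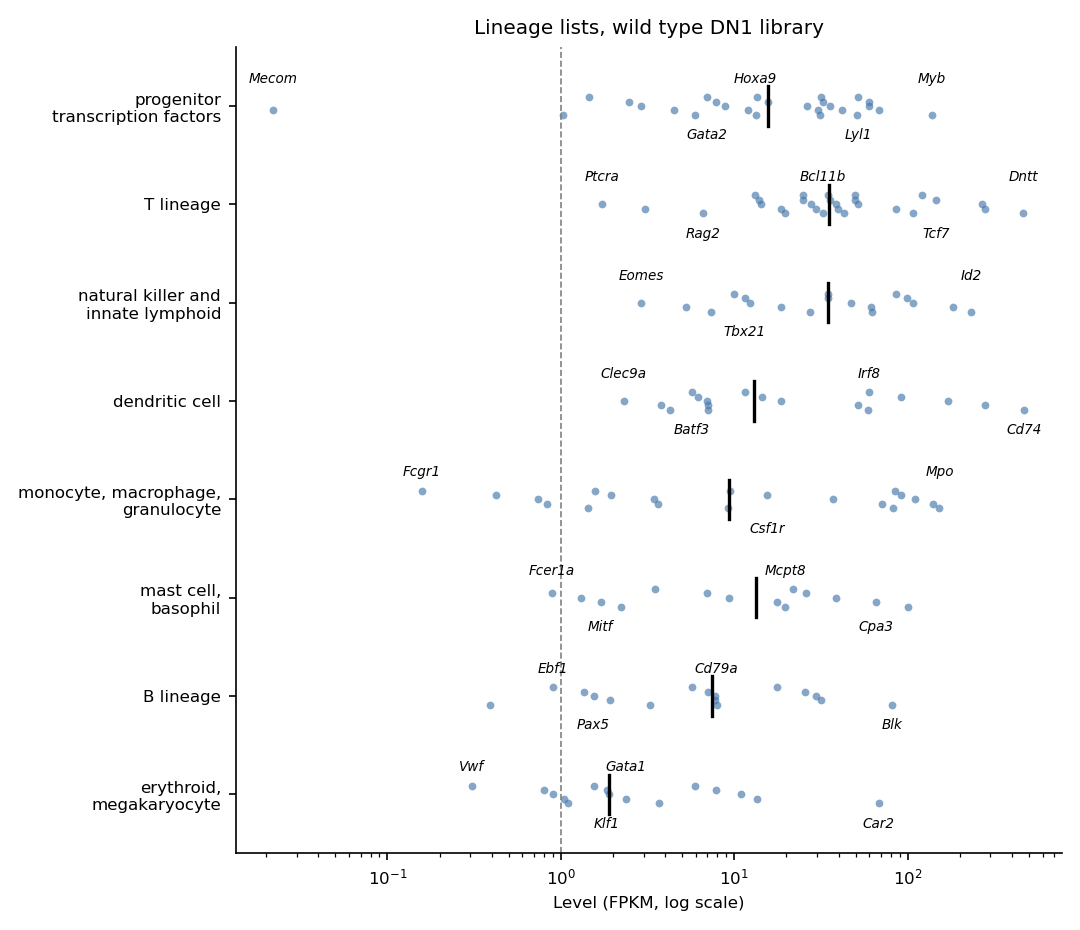
Levels in FPKM, on a logarithmic axis, of the genes of 8 lineage lists in the wild type DN1 library. Each point is a gene, the dashed line marks 1 FPKM and each bar a list median, which runs from 1.89 FPKM for erythroid and megakaryocyte genes to 35.1 FPKM for T lineage regulators.

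Receptors for cytokines gave 35 of 39 measured chains with a median of 19.1 FPKM. The interleukin 7 receptor, which sustains early lymphocytes, was the highest, with Il7r at 182 FPKM and the common gamma chain Il2rg at 142 FPKM, a ratio of 1.28. Crlf2, which joins Il7r to bind the cytokine TSLP, had 31.4 FPKM, so that Il7r stood 5.80 times higher. The alpha chain of the interferon gamma receptor, Ifngr1, had 97.5 FPKM against 24.5 FPKM for Ifngr2, a ratio of 3.98. For interleukin 23, Il23r had 39.9 FPKM and Il12rb1 had 23.2 FPKM, and the chain particular to interleukin 12, Il12rb2, was at 9.42 FPKM. Chains of the same receptor therefore differed by several fold in some cases and by little in others. Several chains for myeloid growth factors were lower, Csf2ra at 10.5 FPKM, Csf2rb at 7.59 FPKM and Csf3r at 1.57 FPKM. At the low end lay the eosinophil receptor chain Il5ra at 0.493 FPKM and the oncostatin M receptor Osmr at 0.177 FPKM.

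Below these receptors, the Janus kinases and their STAT factors were all measured at 10 FPKM or more, a level that 36.5% of all genes reached. Jak1 had 104 FPKM and Jak3, which binds the common gamma chain, had 71.8 FPKM, above Jak2 at 38.6 FPKM and Tyk2 at 22.0 FPKM. The 7 STAT genes lay closer together, from Stat3 at 58.9 FPKM to Stat2 at 13.2 FPKM. Stat5b and Stat5a, which act after interleukin 7, had 46.3 and 30.1 FPKM.

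In the Notch pathway, 25 of 28 genes were measured, with a median of 20.9 FPKM, and the members of each role differed widely. Notch1, the receptor that directs the T lineage, had 108 FPKM and made up 73.1% of the summed level of the 4 receptor genes. Notch2 had 35.6 FPKM, Notch3 had 3.05 FPKM and Notch4 had 1.01 FPKM. Of the Fringe enzymes, which glycosylate Notch and alter its response to ligands, Lfng had 74.2 FPKM, Mfng had 52.2 FPKM and Rfng had 6.58 FPKM. Psenen, a subunit of the gamma-secretase that cleaves Notch, had 99.7 FPKM. Of the ligands, Jag1 had 9.99 FPKM and Jag2 had 3.60 FPKM, both above Notch3. The 3 genes under 1 FPKM were all ligands of the Delta kind, Dll1 at 0.674 FPKM, Dll4 at 0.223 FPKM and Dll3 at 0.0377 FPKM. Of the transcriptional targets of the pathway, Hes1 had 42.7 FPKM, beside Tcf7.

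Receptor tyrosine kinases and other growth factor receptors had 20 of 35 measured, or 57.1%, near the 56.5% of all genes. Their median was 1.79 FPKM, against 3.13 FPKM over all genes. Kit and Flt3 headed them. Tgfbr2, a chain of the receptor for transforming growth factor beta, followed at 50.03 FPKM, then Pdgfrb at 46.8 FPKM and the partner chain Tgfbr1 at 29.4 FPKM. Pdgfrb, best known from pericytes and other stromal cells, stood far above its relative Pdgfra at 0.0374 FPKM. The endothelial receptor Tek, at 0.00434 FPKM, was the lowest of the list.

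Homing receptors covered several routes into and within tissue. Of 20 chemokine receptors 16 were measured, with a median of 7.13 FPKM, and Cxcr6, found on innate-like lymphocytes, was the highest at 155 FPKM. Cxcr4, which progenitors use in the bone marrow and the thymic cortex, had 77.1 FPKM. Ccr9 and Ccr7, both used by progenitors to enter the thymus, had 33.6 and 24.3 FPKM, and the monocyte receptor Ccr2 had 71.5 FPKM. Ccr1, Cxcr7, Ccr3 and Cxcr1 were under 1 FPKM, the last at 0.0282 FPKM. Among integrins and selectins 22 of 30 genes were measured. Selplg, a ligand of selectins that progenitors use for thymic entry, had 108 FPKM. Integrin chains of leukocytes led the rest, with Itgb7 at 123 FPKM, Itgal at 106 FPKM, Itgae at 93.6 FPKM, Itgb2 at 92.2 FPKM, Itgb1 at 83.7 FPKM and Itga4 at 67.1 FPKM. Partner chains were close for LFA-1, where Itgal over Itgb2 was 1.15, and far apart for the myeloid integrin, where Itgb2 exceeded Itgam 16.1 times.

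Sensors and developmental receptors were lower. Of 15 genes of Toll-like receptors and their adaptors 12 were measured, with a median of 3.62 FPKM, and the 2 highest were the chaperone Unc93b1 at 57.2 FPKM and the adaptor Myd88 at 30.3 FPKM. The highest receptor was Tlr12 at 15.3 FPKM, followed by Tlr7, a sensor of single-stranded RNA, at 9.08 FPKM. Tlr4, the sensor of lipopolysaccharide, had 1.92 FPKM, and Tlr13, Tlr5 and Tlr8 lay under 1 FPKM. Of receptors for Wnt, Hedgehog and sphingosine 1-phosphate, 12 of 20 were measured, or 60%, near the 56.5% of all genes. Their median was 2.89 FPKM, near the 3.13 FPKM over all genes. The lymphoid sphingosine receptor S1pr4 had 45.4 FPKM and S1pr1, which guides exit from the thymus, had 17.9 FPKM. Smo, the Hedgehog transducer, had 24.8 FPKM and the Wnt co-receptor Lrp6 had 24.1 FPKM, whereas the highest Frizzled gene, Fzd6, had 7.38 FPKM.

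**Figure D3:**
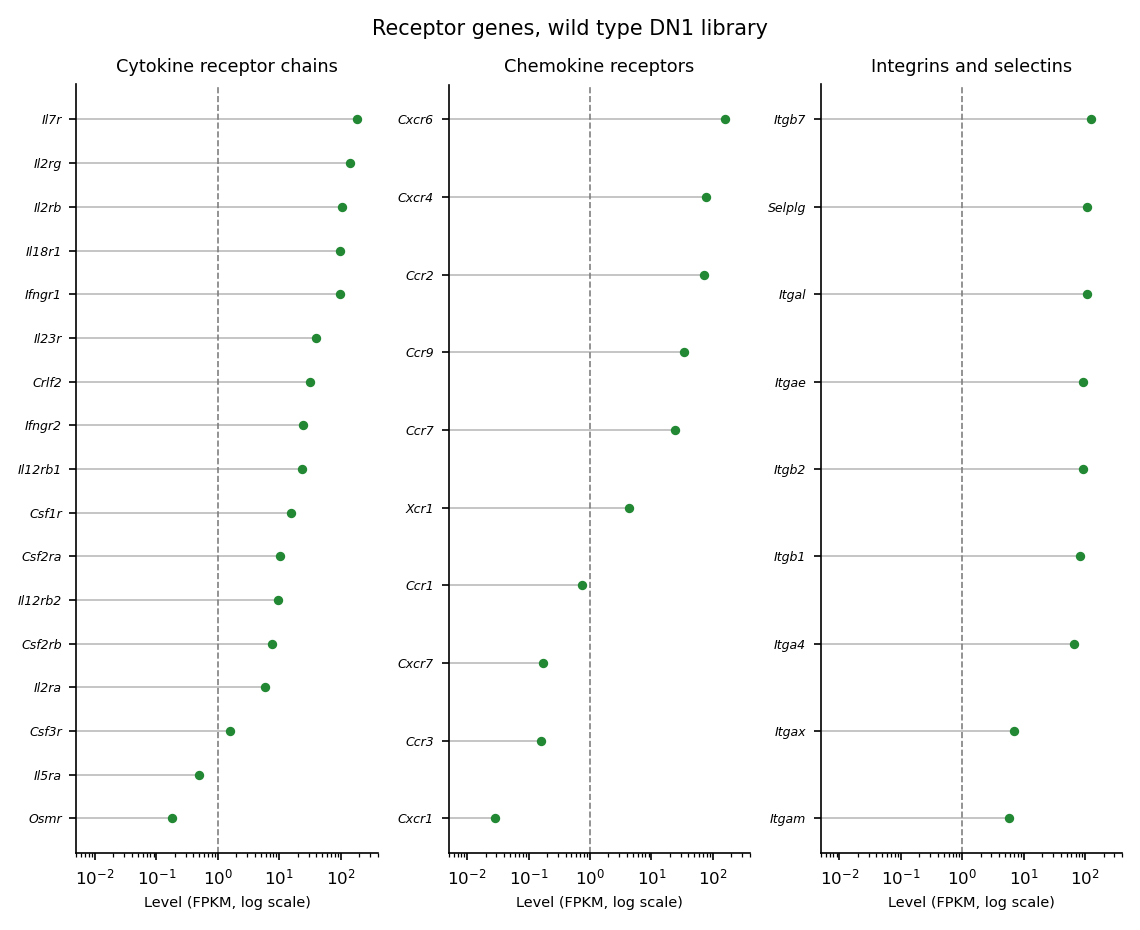
Levels in FPKM, on a logarithmic axis, of cytokine receptor chains, chemokine receptors, and integrins and selectins in the wild type DN1 library, each point a gene and the dashed line 1 FPKM. Il7r at 182 FPKM heads the cytokine receptors and Cxcr6 at 155 FPKM the chemokine receptors, and only genes named in the text are shown.

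Within families of related factors, the share held by the leading member ranged widely. Id2 had 82.1% of the level of the 4 Id genes, and Tcf7 had 82.6% of that of the TCF/LEF genes, ahead of Lef1 at 27.6 FPKM. Gata3 held 66.4% of the GATA level. Of the E proteins, which Id proteins bind, Tcf3 had 49.9 FPKM or 46.1% of the family, Tcf12 had 39.8 FPKM and Tcf4 had 18.5 FPKM. Ikzf1 had 49.8% of the Ikaros family, with Ikzf3 at 58.1 FPKM and Ikzf2 at 49.6 FPKM. Runx1 had 49.6% of the RUNX level at 38.5 FPKM, with Runx3 at 24.9 FPKM and Runx2 at 14.3 FPKM, while their shared partner Cbfb stood above each at 108 FPKM. Of the MYC transcription factors, which drive growth, Mycn had 41.6 FPKM, Myc had 36.1 FPKM and Mycl1 had 4.63 FPKM. The antagonist Mxd4 was higher than each at 61.6 FPKM.

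**Figure D4:**
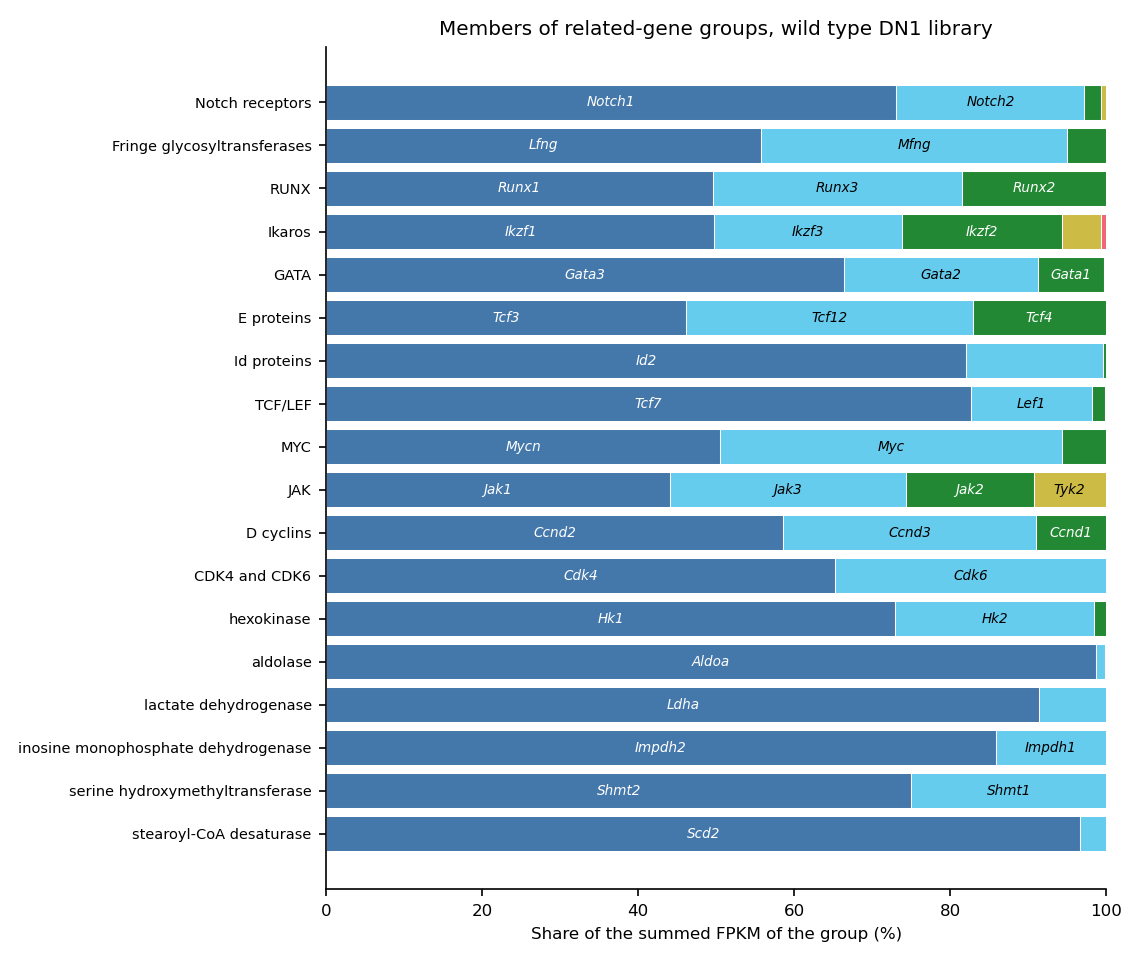
Share of the summed FPKM of each family held by each member in the wild type DN1 library, in percent, with members ordered from the highest and smaller or unnamed members left blank. Leading shares shown include 73.1% for Notch1, 82.1% for Id2, 82.6% for Tcf7 and 66.4% for Gata3.

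Genes of the cell cycle entry and of survival were also unequal within families. Cdk4 had 218 FPKM, or 65.2% of the level of Cdk4 and Cdk6, and Ccnd2 had 127 FPKM, or 58.5% of the D cyclins, above Ccnd3 at 70.7 FPKM and Ccnd1 at 19.4 FPKM. Of the inhibitors of these kinases, Cdkn1b had 54.2 FPKM, Cdkn2d had 31.8 FPKM and Cdkn2c had 10.9 FPKM. The tumour suppressor locus Cdkn2a, whose products halt the cycle or stabilise p53, had 0.808 FPKM, and Cdkn2b had 0.539 FPKM. Replication genes were well represented, since all 6 MCM helicase genes lay between 63.5 and 190 FPKM, Mcm6 the highest. In the BCL2 family 17 of 18 genes were measured. The survival protein Mcl1 led at 149.5 FPKM, and Bax, which permeabilises mitochondria, had 53.1 FPKM. Bcl2 itself had 18.6 FPKM and Bcl2l1 had 14.8 FPKM, beside Bcl2l11, which opposes them, at 15.2 FPKM. Pmaip1 had 1.43 FPKM and Hrk was listed at 0.

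Energy metabolism was measured almost throughout. In glycolysis 22 of 25 genes were measured, with a median of 27.1 FPKM. The highest levels came from both its upper and its lower steps. Pkm had 306 FPKM, Ldha had 290 FPKM, Gapdh had 282 FPKM, Pgk1 had 219.5 FPKM and Aldoa had 213 FPKM. Gpi1, the isomerase after hexokinase, had 135.5 FPKM, and the joint entry of the enolase Eno1 and Gm5506 had 63.1 FPKM. Hexokinase had 30.1 FPKM for Hk1 and 10.5 FPKM for Hk2, and the glucose transporters were at like levels, Slc2a3 at 19.4 FPKM and Slc2a1 at 14.8 FPKM. In the tricarboxylic acid cycle and the entry of pyruvate, 30 of 31 genes were measured with a median of 47.0 FPKM. Mdh1, the cytosolic malate dehydrogenase, had 125 FPKM, and the mitochondrial Idh2 had 114 FPKM against 12.8 FPKM for the cytosolic Idh1. The exception under 1 FPKM was Pdk4, a kinase that shuts off pyruvate dehydrogenase, at 0.125 FPKM, and its relative Pdk1 had 36.5 FPKM. Of 9 genes of the pentose phosphate pathway 8, or 88.9%, had 10 FPKM or more, against 36.5% of all genes. Taldo1 at 176 FPKM and Tkt at 140 FPKM led them. G6pdx, the enzyme of the entry step of this pathway, had 13.9 FPKM, and G6pd2 was listed at 0.

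Biosynthetic pathways were measured to a like extent. All 29 genes of nucleotide synthesis had at least 6.86 FPKM, with a median of 32.3 FPKM. Nme2, a nucleoside diphosphate kinase, had 352 FPKM, Impdh2, which commits purines to guanine nucleotides, had 196 FPKM, and Paics, of purine synthesis, had 184 FPKM. Impdh2 accounted for 85.9% of the level with Impdh1. In serine and folate metabolism 14 of 19 were measured. Phgdh, which starts serine synthesis, had 131 FPKM, and the mitochondrial Shmt2 had 61.1 FPKM, or 75.03% of the level with Shmt1. The genes of glycine cleavage and of transsulfuration in this list were under 1 FPKM, among them Gldc at 0.0421 FPKM and Cbs at 0.183 FPKM. The amino acid carrier Slc38a2 had 95.5 FPKM.

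Lipid, redox and iron genes followed. The desaturase Scd2 had 160 FPKM, 96.7% of the level with Scd1, and the citrate lyase Acly had 80.0 FPKM. Cpt1a, the gatekeeper of mitochondrial fatty acid oxidation, had 20.1 FPKM, and the receptors Pparg and Ppara had 0.323 and 0.0461 FPKM. All 18 cholesterol synthesis genes lay in a narrow range of 6.34 to 38.8 FPKM, Srebf2, their transcription factor, the highest. Redox enzymes had a median of 42.7 FPKM with 22 of 24 measured, led by the glutathione peroxidase Gpx1 at 472.5 FPKM and the peroxiredoxins Prdx2 at 247 FPKM and Prdx1 at 216 FPKM. The ferritin chains Ftl1 and Fth1 had 727 and 322 FPKM, against 45.6 FPKM for the transferrin receptor Tfrc and 1.69 FPKM for the iron exporter Slc40a1. Alas2, the erythroid enzyme of haem synthesis, had 0.397 FPKM, while its general relative Alas1 had 11.4 FPKM.

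**Figure D5:**
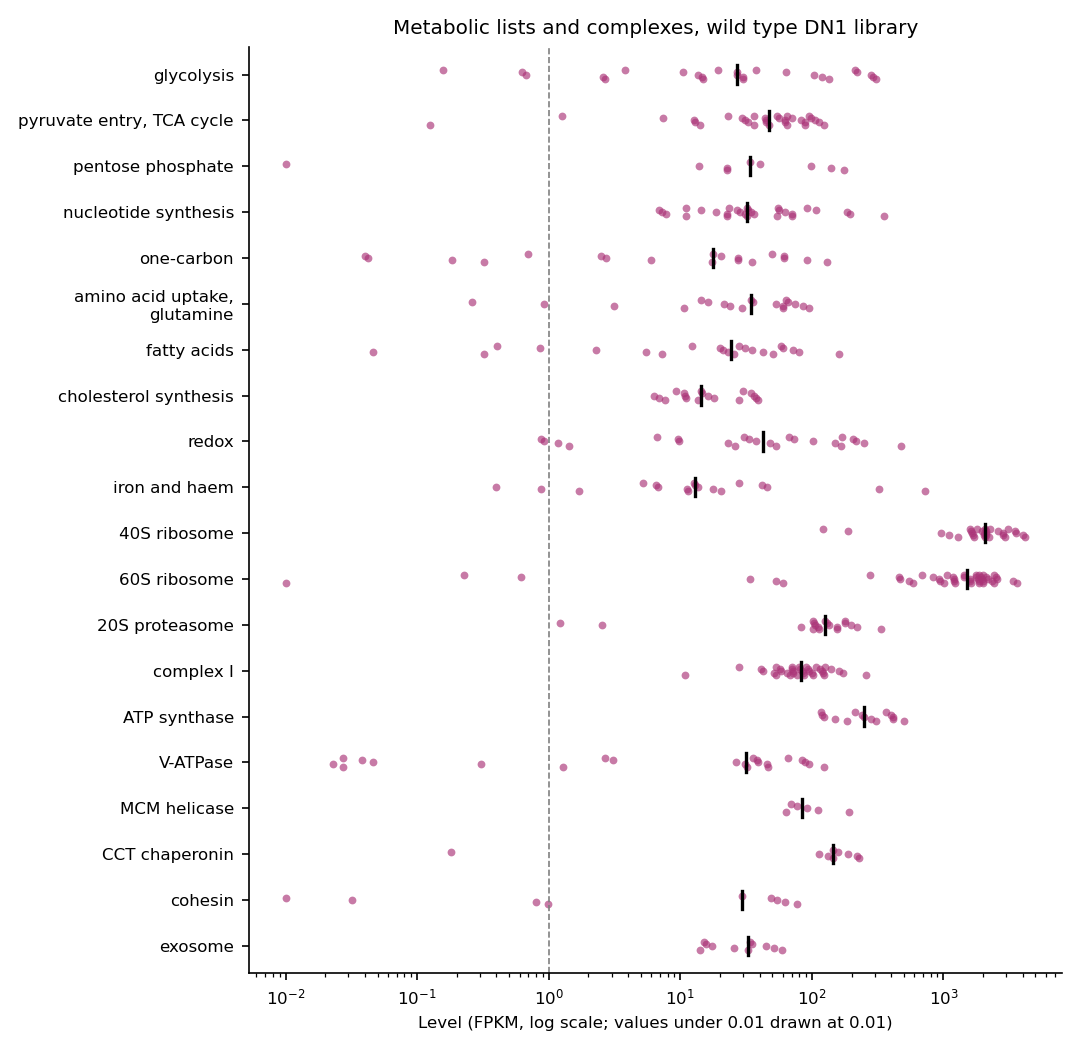
Levels in FPKM, on a logarithmic axis, of metabolic genes by pathway in the wild type DN1 library, with values under 0.01 drawn at 0.01 and black bars at the list medians. Cholesterol genes span 6.34 to 38.8 FPKM, a narrow band beside glycolysis, which spans 0.158 to 306 FPKM.

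Among subunits at 1 FPKM or more, most of the 10 complexes examined had closer levels than all measured genes, with 2 exceptions. The spread, taken as the SD over members at 1 FPKM or more on the log2(FPKM + 1) scale, had a median of 0.75 over 10 complexes, against 1.67 over all 10772 measured genes. With no filter on low values it was 1.47, against 2.33 over all 19051 genes. The chaperonin CCT, which folds actin and tubulin, was the tightest at 0.36 over 8 genes, from Cct7 at 113 FPKM to Cct2 at 229 FPKM. Cohesin, which holds sister chromatids, had 0.51 over 5 genes, and the MCM helicase 0.57 over 6. The filter left out 4 of 9 cohesin genes, among them Rec8 at 0.979 FPKM, and 1 of 9 CCT genes, Cct6b at 0.182 FPKM. All 19 genes of the 20S proteasome passed it. The spread of a complex therefore depends on which low members passed. The ATP synthase had 0.71 over 15 genes with a median of 249 FPKM, and complex I, which feeds electrons into respiration, had 0.78 over 36 genes with a median of 82.5 FPKM. The proton pump of lysosomes, the V-ATPase, was wider than all measured genes at 1.74 over 16 genes, from Atp6v1f at 124 FPKM to Atp6v0e2 at 1.29 FPKM. Members outside the common range are known tissue forms in part. The 20S proteasome, the other complex wider than all measured genes, had 1.85 over 19 genes, and without its lowest members, the thymic epithelial Psmb11 at 2.56 FPKM and the germ cell Psma8 at 1.21 FPKM, the other 17 had 82.3 FPKM or more. Among its catalytic subunits the immune form Psmb8 was the highest at 334 FPKM. The other immune forms, Psmb9 at 101.8 FPKM and Psmb10 at 82.3 FPKM, lay below Psmb7 at 126.6 FPKM, Psmb6 at 113.2 FPKM and Psmb5 at 104.4 FPKM.

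The ribosome had a spread of 1.10 over 30 small-subunit and 1.49 over 43 large-subunit genes. Both values lay above the median of 0.75 over complexes and below the 1.67 over all measured genes. The lowest measured large-subunit entries were a joint entry of Rpl34 and Rpl34-ps1 at 34.1 FPKM, Rpl30 at 52.9 FPKM and Rpl26 at 60.1 FPKM. At the same loci in the table stood entries left out as predicted genes or pseudogenes, Rpl34-ps1 at 2450 FPKM, Gm12191 at 1815 FPKM and Gm15772 at 2357 FPKM. The levels of these ribosomal genes are therefore uncertain, since fragments of near-identical copies can be split between entries. Of 18 left-out predicted genes and pseudogenes at 100 FPKM or more, these were the highest that shared a locus with a ranked gene.

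Surface antigens gave the library its white blood cell profile. Of 86 genes with a CD symbol 70 were measured, with a median of 8.41 FPKM, and Cd52 and Cd74 led them. The tetraspanins Cd53 and Cd82 had 211 and 115 FPKM, Cd48, a ligand of the receptor 2B4, had 164 FPKM, and Cd7, an antigen of T and natural killer cells, had 158 FPKM. Among mouse antigens, Ly6e, of immature thymocytes, had 483 FPKM, the sialophorin Spn had 163 FPKM and Thy1, the pan-T antigen, had 118 FPKM. Ly6a, which encodes Sca-1, had 85.4 FPKM and Cd24a had 68.1 FPKM. Other antigens found on stem cells were lower, Procr at 2.92 FPKM, Esam at 2.06 FPKM and Prom1 at 0.169 FPKM, so antigens of this kind did not share a level. All 9 genes of class I presentation were measured with a median of 119 FPKM, H2-K1 at 304 FPKM and H2-D1 at 175 FPKM after B2m.

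Of 331 solute carrier genes 167 were measured, or 50.5%, against 56.5% of all genes. Their median was 1.01 FPKM, and 46 were listed at 0. The mitochondrial carriers were the highest, with the adenine nucleotide carriers Slc25a5 at 476 FPKM and Slc25a4 at 126 FPKM, and the phosphate carrier Slc25a3 at 212 FPKM. The amino acid carrier Slc38a2 came next, and then Slc44a2, a choline carrier, at 88.3 FPKM. Over all 55 lists together, 959 of 1253 distinct genes were measured, or 76.5%, against 56.5% of all genes. This share describes the choice of lists as much as the library.

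Ostm1, the gene that the mutant mice lack, served as a check of the labels. The gl/gl library listed it at 0 and the CD2-Ostm1 gl/gl library at 5.35 FPKM, against 19.6 FPKM and rank 4496 in wild type. Its protein is the beta subunit of the lysosomal chloride transporter encoded by Clcn7, which had 8.94 FPKM and rank 7292 in wild type. In wild type DN1 cells Ostm1 thus lay between the median and the upper quartile of measured genes, and Clcn7 between the lower quartile and the median.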

How the data were processed

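RNA of sorted DN1 cells was sequenced after total RNA extraction and TruSeq library preparation, per the labels' protocols, and a table with 1 value per gene and library was deposited. Per the submitters' processing notes, TopHat2 2.0.10, Cuffdiff 2.2.1 and the build mm10 were used. The deposited values were read as FPKM, because Cuffdiff writes that unit, although the header names none. Which gene annotation and strand setting they used is not given in the sources used here, so a gene and an overlapping or antisense partner cannot be told apart.

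Of 23352 lines, 1 was empty and 1 held no wild type number. Small RNAs (789 lines), predicted genes or clones (3347) and pseudogenes (163) were left out by symbol, and 63 entries that name more than 1 gene were kept. With a single library, no test, p-value or SD between replicates could be given, and the levels carry no error. Depth was estimated from 1711 genes annotated with only 1 transcript, by the smallest step between their low values and for fragments taken as 200 bases long, in a procedure tested on simulated data, which gave 0.0221 FPKM for 1 fragment on 1 kb. The tables were made with Python 3.11.15, numpy 2.4.6 and pandas 2.3.3.

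The members and the 55 gene lists (1346 entries, of which 2 distinct symbols had no line) were chosen with earlier results of these data known. Named genes were the 30 highest, and in each list the 8 highest, the 3 lowest, the core members and all members of lists of at most 12. Genes named outside this rule, the isozyme groups, the receptor pairs, the symbol pattern for solute carriers, the comparison with RefSeq transcripts (18308 genes) and promoters (15205 genes), and the loci of left-out entries were chosen after values were seen. A ligand placed by mistake among the cytokine receptors was removed after values were seen. Alternatives were other thresholds, pseudocounts and sets of entries. Some loci in the table span neighbouring genes. Some genes that meet the rule for named genes are not reported here.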

Additional observations from a re-analysis of the deposited data

How the results depend on the processing

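No paired analysis was possible because each genotype had 1 library and no test was made. The count of measured genes, 10772 as reported, was 11562 at 0.5 FPKM, 8736 at 5 FPKM, 11745 with small RNAs and predicted genes kept, 10752 without joint entries and 10338 with only genes matched to the annotation, the last chosen after seeing the data. Listed genes measured, 959 as reported, ran from 798 at 5 FPKM to 1011 at 0.5 FPKM. The share of the 100 highest genes, 37.0% as reported, was 78.6% with small RNAs and predicted genes kept, 36.7% without joint entries, 35.3% without transcripts under 500 bases and 19.2% without ribosomal protein genes. Scarna2 alone, among the small RNAs, was listed at 824149 FPKM, more than the 494111 FPKM of all ranked genes together. The median spread within complexes, 0.75 as reported, was 0.77 with a pseudocount of 0.1, 0.71 with a pseudocount of 5, 1.47 with no filter on low values and 0.71 over members at 5 FPKM or more. Ranks moved with the left-out entries kept, Eef1a1 to 15, Cd34 to 465, Kit to 713, Cd44 to 1211, Flt3 to 1632, Ostm1 to 4728 and Clcn7 to 7696. Depth limits levels under 1 FPKM, and no setting stands in for a replicate.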

Other observations

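Small RNAs that were left out of the ranking held 1201682 FPKM over 789 entries, of which 86 had 1 FPKM or more, against 494111 FPKM over the 19051 ranked genes. FPKM of transcripts shorter than the sequenced fragments is unreliable, and these values are given with no reading. Predicted genes or clones summed to 15016 FPKM and pseudogenes to 3505 FPKM.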
